A study of Mus musculus with 14 samples.

Results

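Pttg1, Myo7a, Tagap, Itga11 and Myoc are 5 of the 53465 genes counted in these mouse libraries, and were chosen by their large fitted strain differences, AKR/J (AKR) minus C57BL/6NJ (B6N), which appeared both after observational fear conditioning (OFL) and in naive mice. RNA of the anterior cingulate cortex was sequenced in bulk from AKR after OFL (3 libraries), B6N after OFL (3 libraries), naive AKR (4 libraries) and naive B6N (4 libraries). In observational fear conditioning a mouse watches another mouse receive shocks. Both strains are inbred, and the labels give no engineered allele, drug, age or sex. The labels number the libraries without saying that each came from its own animal, so a p-value here measures the spread between libraries, which may be technical. Strain differences of the 5 genes are given as a description with no test, because those values chose the genes. All 5 genes passed the filter on low counts in every comparison.

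The genes belong to unrelated systems. Pttg1 encodes securin, which holds the protease separase inactive until chromosomes part in mitosis. Myo7a encodes an unconventional myosin, a motor protein on actin that hair cells of the inner ear and cells of the retina need, and its loss causes deafness in mice. Tagap encodes a GTPase-activating protein known from activated T cells. Itga11 encodes an integrin alpha chain that pairs with the integrin beta chain of Itgb1 and binds fibrillar collagen. Myoc encodes myocilin, a secreted glycoprotein with an olfactomedin domain that is known from glaucoma and, in mouse brain, from astrocytes at the surface.

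Total counts per library ranged between 13487311 and 14396289 (AKR) or 14063573 and 14526253 (B6N) after OFL. The naive ranges were 19073921 to 23782061 (AKR) and 20583264 to 25780227 (B6N). Markers of cortical neurons were abundant in all groups, with Slc17a7, a glutamate transporter gene, at 693.9 CPM or more and Gad1, a GABA synthesis gene, at 252 CPM or more in every library (CPM, counts scaled to library size, here by TMM). These markers are shared by other cortical areas and do not single out the cingulate. The naive and OFL libraries differ far beyond the 5 genes: 78.7% of tested genes passed the test of OFL against naive libraries in AKR and 78.4% in B6N. Over 49 tested histone genes, most of which make messages with no poly(A) tail, the median log2 difference was 5.50 for AKR and 4.85 for B6N. The conditioning and the set of libraries cannot be told apart, and this bears on every comparison of OFL with naive libraries below. In bulk tissue, fewer cells of a type and less RNA per cell cannot be told apart either.

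Pttg1 was nearly absent from AKR cortex and present in B6N. The gene lies on chromosome 11, 43420250 to 43426251, minus strand (GRCm38, as for all positions here; ENSMUSG00000020415), with 10 annotated transcripts. After OFL the 3 AKR libraries held 2 Pttg1 counts each, that is 0.148, 0.139 and 0.146 CPM, against 11.9, 16.0 and 12.2 CPM in the 3 B6N libraries. In naive mice the 4 AKR libraries held 4, 8, 2 and 5 counts, that is 0.197, 0.339, 0.104 and 0.216 CPM, against 16.7, 15.1, 18.2 and 16.1 CPM in the 4 B6N libraries. The nearest B6N library stood 80.5 times above the nearest AKR library after OFL and 44.6 times in naive mice. On summed counts the ratio of AKR to B6N was 0.0108 after OFL (exact 95% interval 0.00394 to 0.0236, from 6 against 575 counts) and 0.0133 in naive mice (0.00801 to 0.0209, from 19 against 1504 counts). These intervals cover counting error only. The fitted log2 difference, AKR minus B6N, was -6.46 (standard error, SE, 0.28) after OFL and -6.19 (SE 0.16) in naive mice, and with so few counts in AKR it depends on the prior count of the fit.

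Myo7a was lower in AKR by about the same factor in both sets of libraries. It lies on chromosome 7, 98051060 to 98119524, minus strand (ENSMUSG00000030761), and has 8566 exonic bases. After OFL its level was 2.97, 3.20 and 2.98 CPM in AKR, against 31.9, 29.7 and 31.9 CPM in B6N. In naive mice it was 2.90, 2.75, 2.64 and 2.73 CPM in AKR, against 33.6, 29.96, 31.4 and 31.5 CPM in B6N. The coefficient of variation (CV) between libraries was 4.34% in AKR and 3.94% in B6N after OFL, and 3.95% in AKR and 4.72% in B6N in naive mice. Counting alone gives a CV of 15.4% in AKR and 4.73% in B6N after OFL, and of 13% in AKR and 3.72% in B6N in naive mice, so the AKR libraries lay closer together than counting error alone would put them. The log2 difference was -3.36 (SE 0.11) after OFL and -3.52 (SE 0.07) in naive mice, a fold of 10.2 and 11.4. Strain accounted for 99.8% of the variance of Myo7a over the 14 libraries (of log2 CPM with 0.5 CPM added), the largest share of the 20291 genes tested over all libraries, where the median share was 2.94%.

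Tagap was higher in AKR in both sets. It lies on chromosome 17, 7926000 to 7934897, plus strand (ENSMUSG00000033450). After OFL it stood at 16.3, 13.4 and 14.2 CPM in AKR, against 0.960, 1.96 and 2.19 CPM in B6N. In naive mice it stood at 14.3, 15.2, 15.1 and 14.4 CPM in AKR, against 1.14, 1.75, 1.48 and 1.59 CPM in B6N. No AKR library came near a B6N library, the nearest being 6.09 times apart after OFL and 8.16 times in naive mice. The log2 difference was 3.09 (SE 0.18) after OFL and 3.31 (SE 0.11) in naive mice.

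The value of Tagap is uncertain because Tagap1, a gene on the minus strand of the same chromosome (6955011 to 6961156, ENSMUSG00000052031), carries nearly the same sequence. Of the stretches of 31 bases in Tagap transcripts, 54.9% also occur in transcripts of Tagap1. Gm49719, a gene of the same chromosome that did not pass the filter on counts, shares 9.42% of them. With all other genes together, on either strand, 63.4% are shared. The last 2 coding exons of the genes, 1359 bases in all, agree at 1353 bases (99.6%), with one run of 336 identical bases. A window of 90 bases from these exons is shown because it holds 2 of the 6 differing bases, which are in capitals (coding bases 1005 to 1094 of Tagap and 378 to 467 of Tagap1, from GENCODE transcripts on GRCm38). Within these exons, reads that fall outside such bases match both genes, while other stretches of Tagap do not occur in Tagap1.
Tagap: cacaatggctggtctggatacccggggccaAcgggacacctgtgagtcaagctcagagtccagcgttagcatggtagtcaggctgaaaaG
Tagap1: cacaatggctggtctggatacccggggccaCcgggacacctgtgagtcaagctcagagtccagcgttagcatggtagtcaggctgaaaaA

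The counts of the near-copy ran the other way. Tagap1 stood at 12.2, 11.6 and 10.7 CPM in AKR after OFL, against 20.03, 21.6 and 21.2 CPM in B6N after OFL. In naive mice it stood at 14.3, 18.4, 17.4 and 17.5 CPM in AKR, against 26.6, 25.9, 24.3 and 24.4 CPM in B6N. Tagap1 was thus lower in AKR in both sets without overlap of the groups, by a log2 difference of -0.87 after OFL (SE 0.09, edgeR adjusted p = 6.73e-07) and -0.58 in naive mice (SE 0.07, edgeR adjusted p = 3.17e-06). When the counts of both genes were summed as 1 gene, an alternative chosen after seeing the data, the log2 difference was 0.20 after OFL and 0.24 in naive mice. The sum averaged 26.1 ± 2.08 CPM in AKR against 22.6 ± 1.44 CPM in B6N after OFL (SD, n = 3 each), and 31.6 ± 2.13 CPM in AKR against 26.8 ± 1.04 CPM in B6N in naive mice (SD, n = 4 each). After OFL, Tagap counts made up 607 of 1086 summed counts in AKR, against 73 of 973 in B6N. In naive mice they made up 1274 of 2737 in AKR, against 135 of 2448 in B6N. An antisense gene, E430024P14Rik, covers 716 exonic bases of Tagap (23.2%) on the other strand, and the strand setting of the counting is not given in the sources used here. Its own level was 3.39 CPM in AKR against 3.68 CPM in B6N after OFL, and 2.20 CPM in AKR against 2.21 CPM in B6N in naive mice, a strain difference that did not pass (edgeR adjusted p = 0.70 after OFL and 0.992 in naive mice).

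**Figure D1:**
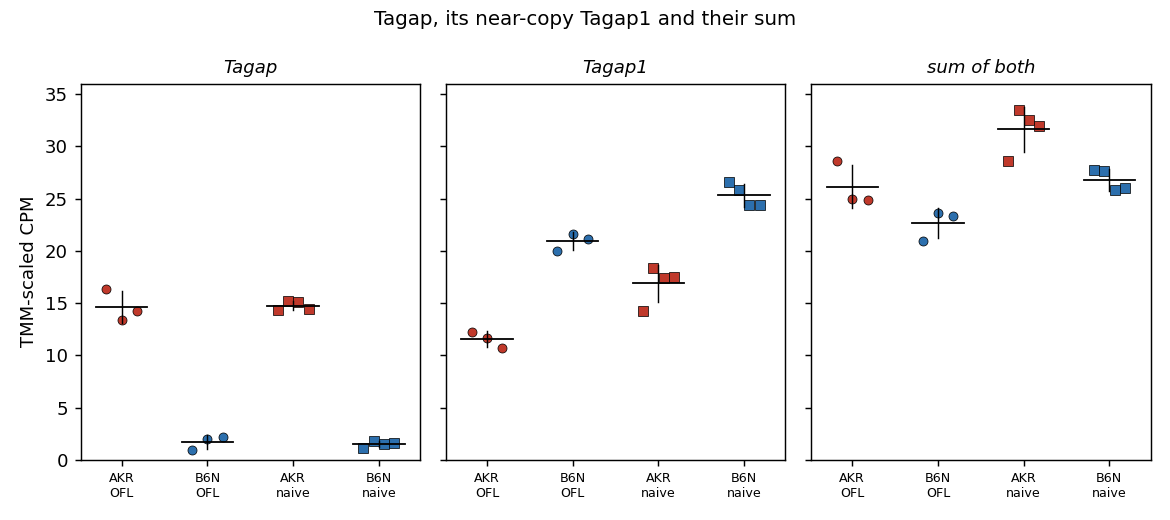
TMM-scaled CPM (linear axis from 0) of Tagap, Tagap1 and the sum of their counts in each library (points), by group, with the group mean (horizontal line) and SD (vertical line). Tagap averages 14.6 CPM in AKR after OFL and 1.70 CPM in B6N after OFL, Tagap1 averages 11.5 and 20.9 CPM in the same groups, and the sums 26.1 and 22.6 CPM lie closer together.

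Itga11 was higher in AKR, and more so after OFL. It lies on chromosome 9, 62677826 to 62783982, plus strand (ENSMUSG00000032243). After OFL it stood at 12.5, 14.4 and 13.2 CPM in AKR, against 1.85, 1.89 and 0.991 CPM in B6N. In naive mice it stood at 13.5, 12.6, 9.64 and 15.1 CPM in AKR, against 3.78, 2.74, 3.75 and 3.61 CPM in B6N. The AKR libraries after OFL lay within the range of the naive ones, while every B6N library after OFL lay below every naive B6N library. The log2 difference was 3.06 (SE 0.17) after OFL and 1.88 (SE 0.13) in naive mice, a fold of 8.36 and 3.68.

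Myoc was lower in AKR, and again the gap was wider after OFL. It lies on chromosome 1, 162639155 to 162649693, plus strand (ENSMUSG00000026697). After OFL it stood at 3.71, 2.30 and 3.42 CPM in AKR, against 16.0, 13.5 and 15.1 CPM in B6N. In naive mice it stood at 6.59, 6.02, 6.89 and 8.74 CPM in AKR, against 15.8, 21.2, 18.6 and 19.8 CPM in B6N. Every AKR library after OFL lay below every naive AKR library, whereas the B6N libraries of the sets overlapped. The log2 difference was -2.26 (SE 0.15) after OFL and -1.41 (SE 0.11) in naive mice, a fold of 4.77 and 2.66. Myocos, a gene on the opposite strand, covers 93 exonic bases of Myoc (4.48%), and it had no count in any library after OFL, 6 counts in naive AKR and 9 counts in naive B6N.

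**Figure D2:**
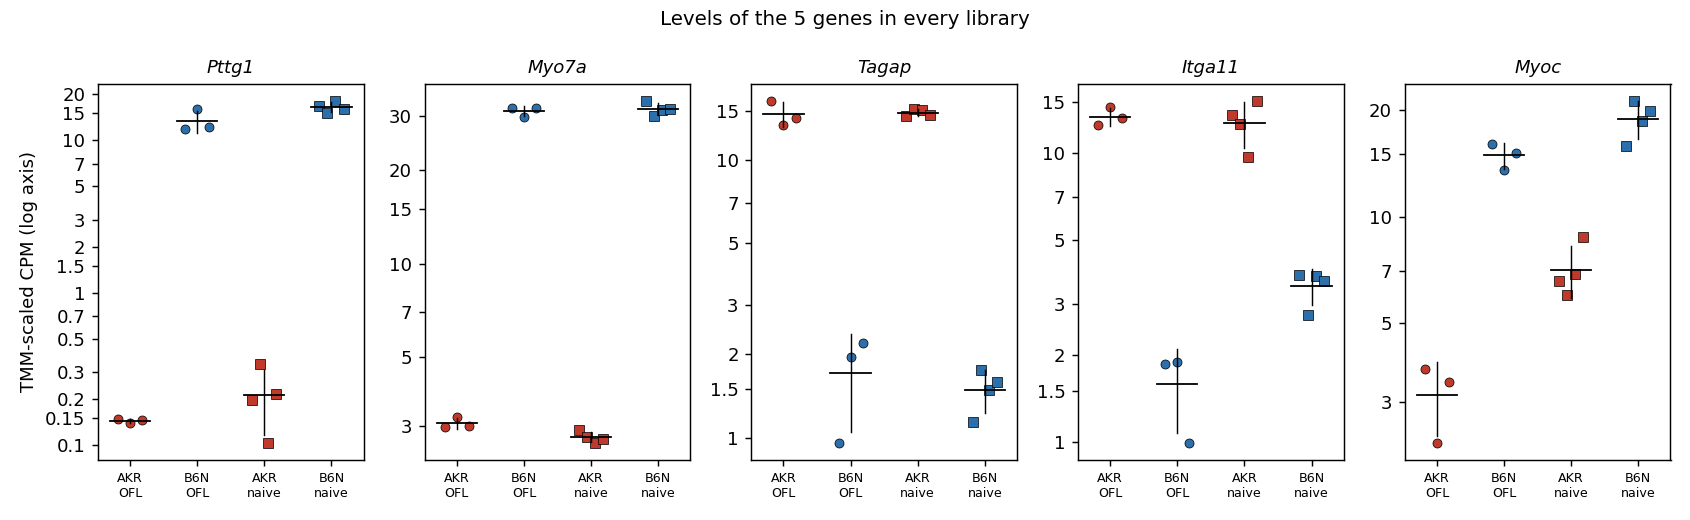
TMM-scaled CPM (log axis, with its own range in each panel) of the 5 genes in each library (points: circles after OFL, squares naive, red AKR, blue B6N), with the group mean (horizontal line) and SD (vertical line). Pttg1 and Myo7a sit lower in AKR by a similar distance in both sets, Tagap sits higher, and the Itga11 and Myoc gaps are wider after OFL.

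For all 5 genes the libraries of the strains did not overlap in either set, which holds for 31.2% of genes after OFL and 34.8% of genes in naive mice. By size, the differences ranked 33 (Pttg1), 119 (Myo7a), 131 (Tagap), 134 (Itga11) and 207 (Myoc) of 17994 genes tested after OFL. In naive mice they ranked 38, 150, 164, 335 and 476 of 17645 genes in the same order. Of the 15915 genes tested in both sets, 174 were higher in AKR and 185 lower in AKR by at least 1 on the log2 scale in both sets, and all 5 genes are among these. A difference as large as the smaller one of Pttg1, in its direction and in both sets, was shared by 3 genes including Pttg1, that of Myo7a by 28 genes, that of Tagap by 53, that of Itga11 by 86 and that of Myoc by 121. At an edgeR adjusted p of 0.05, 7.5% of tested genes were higher and 8.86% lower in AKR after OFL (16.4% in all), against 18.3% higher and 19.5% lower in naive mice (37.8% in all), and these shares carry no weight for the 5 genes, which were chosen on the same contrasts.

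The order of the genes by level differed between the strains. Per kilobase of exon, Tagap led in AKR after OFL at 4.75 CPM per kb, followed by Itga11 at 2.60, Myoc at 1.52, Myo7a at 0.356 and Pttg1 at 0.0722. In B6N after OFL, Myoc led at 7.17 CPM per kb, followed by Pttg1 at 6.69, Myo7a at 3.64, Tagap at 0.553 and Itga11 at 0.307. Libraries of Myoc and Pttg1 overlapped in that group, and so did those of Tagap and Itga11, so neither of these pairs of neighbours in the order is set apart. In naive AKR the order was Tagap at 4.79, Myoc at 3.40, Itga11 at 2.48, Myo7a at 0.322 and Pttg1 at 0.107 CPM per kb, and libraries of Myoc and Itga11 overlapped. In naive B6N it was Myoc at 9.10, Pttg1 at 8.26, Myo7a at 3.69, Itga11 at 0.676 and Tagap at 0.484 CPM per kb, and there Myoc overlapped with Pttg1 and Itga11 with Tagap. Tagap1, the near-copy, stood at 4.98 CPM per kb in AKR and 9.06 in B6N after OFL, and at 7.30 in AKR and 10.9 in B6N in naive mice.

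The next comparison asked how the 5 genes differed between OFL and naive libraries within a strain, which did not choose them. In AKR, 1 of the 5 passed, Myoc, which was lower after OFL, against 78.7% of all genes (39.8% higher and 38.8% lower). Myoc fell to 3.14 ± 0.745 CPM in AKR after OFL (SD, n = 3), against 7.06 ± 1.18 CPM in naive AKR (SD, n = 4), a log2 difference of -1.18 (SE 0.17, edgeR adjusted p = 8.74e-07). The other 4 had log2 differences between -0.59 (Pttg1, SE 0.64) and 0.15 (Myo7a, SE 0.13) in AKR, with edgeR adjusted p from 0.392 to 0.903. Pttg1 had 2 to 8 counts in each AKR library and passed the filter on counts through B6N, so its test within AKR has little to go on. In B6N, 3 of the 5 passed, all lower after OFL, against 78.4% of all genes (40% higher and 38.4% lower). Itga11 fell to 1.58 ± 0.508 CPM in B6N after OFL (SD, n = 3), against 3.47 ± 0.489 CPM in naive B6N (SD, n = 4), a log2 difference of -1.13 (SE 0.23, edgeR adjusted p = 8.26e-05). Pttg1 fell by 0.30 on the log2 scale in B6N (SE 0.10, edgeR adjusted p = 0.00632). This Pttg1 call ended without B6N OFL replicate 1 (-0.23, edgeR adjusted p = 0.0586) and with protein-coding genes alone (-0.19, edgeR adjusted p = 0.0909). Myoc fell by 0.34 on the log2 scale in B6N (SE 0.11, edgeR adjusted p = 0.0063), and this call ended with protein-coding genes alone (-0.22, edgeR adjusted p = 0.0776). Myo7a had a log2 difference of -0.02 in B6N (edgeR adjusted p = 0.745), and Tagap one of 0.20 (edgeR adjusted p = 0.433) that passed without B6N OFL replicate 1 (0.48, edgeR adjusted p = 0.0468). Over all genes the median absolute log2 difference between OFL and naive libraries was 0.62 in AKR and 0.61 in B6N.

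Whether the strain difference itself differed between the sets was tested as the interaction, the difference after OFL minus that in naive mice. It passed for 2 of the 5 genes and for 5.15% of all genes (3.61% higher and 1.54% lower), and since the genes were chosen with both differences known, no weight rests on that count. The Itga11 interaction was 1.20 on the log2 scale (SE 0.26, edgeR adjusted p = 0.00642), and it passed in all 23 alternatives, with an adjusted p of up to 0.0469. For Myoc the interaction was -0.84 (SE 0.21, edgeR adjusted p = 0.0167), and this call ended without AKR OFL replicate 2 (-0.65, edgeR adjusted p = 0.108). The genes were picked as ones whose strain difference stays the same, and Itga11 goes against that label, as its gap was wider after OFL. The same holds for Myoc, with the library just named. The interaction was -0.28 for Pttg1 (SE 0.63, edgeR adjusted p = 0.886), 0.17 for Myo7a (SE 0.15, edgeR adjusted p = 0.657) and -0.21 for Tagap (SE 0.25, edgeR adjusted p = 0.735). These 3 values do not show that the differences were equal. Histone genes, which mark the OFL libraries, had a median interaction of 0.60 over 49 genes, of which 6 passed, all as higher, against a median of 0.0066 over all genes. Their part in the result was not tested.

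Strain took 99.4% of the variance over libraries for Pttg1 and 97.9% for Tagap, against 88.1% for Itga11 and 79.2% for Myoc. The set of libraries took 13.4% for Myoc and 3.51% for Itga11, and the interaction 3.72% and 4.94%. The spread within groups was close to counting error for Pttg1 in naive AKR, with a CV of 45.3% where counting alone gives 45.9%. It was above it for Itga11 in naive AKR, with a CV of 18.2% against 6.01% from counting. The correlations of their deviations from the group means over 14 libraries within groups ran from -0.561 (Tagap with Itga11) to 0.482 (Pttg1 with Itga11), while their levels, which carry the strain difference, correlated at up to 0.994 (Pttg1 with Myo7a).

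Genes near the 5 passed the strain test at a share close to or below that of all genes. Within 500 kb of the 5 genes, 39 other genes were tested after OFL, of which 3 were higher and 1 lower in AKR (10.3%, against 16.4% of all genes). In naive mice 40 were tested, of which 9 were higher and 6 lower (37.5%, against 37.8% of all genes). Within 2000 kb the share for the 5 together was 16.1% after OFL and 41.8% in naive mice, the second above that of all genes. Within 2000 kb of Tagap alone it was 40% of 30 tested genes after OFL and 73.5% of 34 in naive mice. Near Pttg1 none of 6 tested genes passed edgeR's test after OFL and none of 7 in naive mice, against 1 gene in each set at an unadjusted p of 0.05 and 0 with DESeq2. Its neighbour Slu7, a splicing factor gene 7493 bases away, stood at 52.1 ± 1.33 CPM in AKR against 58.2 ± 2.59 CPM in B6N after OFL, and at 59.5 ± 1.81 CPM in AKR against 60.8 ± 2.35 CPM in B6N in naive mice (SD; edgeR adjusted p = 0.0592 after OFL and 0.619 in naive mice). On the other side Atp10b, a flippase gene, had log2 differences of -0.24 after OFL and 0.58 in naive mice (edgeR adjusted p = 0.678 and 0.0822). Near Myo7a none of 11 genes passed edgeR's test after OFL (1 at an unadjusted p of 0.05, 0 with DESeq2). In naive mice 1 of 11 passed, Clns1a, a gene of spliceosome assembly, at 0.20 (SE 0.04, edgeR adjusted p = 0.000445). Capn5, a protease gene only 2035 bases from Myo7a, had log2 differences of -0.04 after OFL and 0.02 in naive mice (edgeR adjusted p = 0.786 and 0.734).

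Near Tagap 2 of 10 genes passed after OFL, and 7 of 10 in naive mice. Fndc1, a gene of a fibronectin-domain protein, averaged 7.23 CPM in AKR against 3.90 CPM in B6N after OFL (log2 0.88, SE 0.16, edgeR adjusted p = 0.000605) and 20.2 CPM in AKR against 7.20 CPM in B6N in naive mice (log2 1.49, SE 0.07, edgeR adjusted p = 1.87e-11). Rnaset2a, a ribonuclease gene that exists in the mouse beside a close copy, so that its value is uncertain, was higher by 1.57 after OFL (edgeR adjusted p = 4.34e-05) and 1.42 in naive mice (edgeR adjusted p = 5.84e-07). Rsph3a, a gene of the ciliary radial spoke, had a difference of -0.19 after OFL (edgeR adjusted p = 0.41) and was higher by 0.48 in naive mice (edgeR adjusted p = 0.00212).

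Near Itga11, 2 of 6 genes passed after OFL and 4 of 6 in naive mice. Cln6, a lysosomal disease gene, stood at 5.75 ± 1.06 CPM in AKR against 3.72 ± 0.756 CPM in B6N after OFL, and at 13.1 ± 1.002 CPM in AKR against 7.37 ± 0.233 CPM in B6N in naive mice (SD). Its log2 difference was 0.61 after OFL (edgeR adjusted p = 0.0227) and 0.83 in naive mice (edgeR adjusted p = 1.66e-07). The call after OFL ended in 4 of 16 alternatives, among them without AKR OFL replicate 1 or 3 and without B6N OFL replicate 2 (edgeR adjusted p up to 0.154). Fem1b, a ubiquitin ligase adaptor gene 7839 bases from Itga11, had a log2 difference of -0.05 after OFL (edgeR adjusted p = 0.501) and was lower in AKR at -0.37 in naive mice (edgeR adjusted p = 1.57e-07). Near Myoc none of 6 genes passed edgeR's test after OFL (1 at an unadjusted p of 0.05, 0 with DESeq2), and 3 of 6 passed in naive mice. Fmo2, a monooxygenase gene, had a log2 difference of -0.39 after OFL (edgeR adjusted p = 0.306) and fell short of B6N in naive mice, with -1.08 (SE 0.18, edgeR adjusted p = 0.000141). Prrc2c, the neighbour 21032 bases from Myoc, was lower at -0.09 in naive mice (edgeR adjusted p = 0.0478), and this call ended in 10 of 18 alternatives, including each fit without AKR naive replicate 1, 2 or 4 or without B6N naive replicate 1, 3 or 4.

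**Figure D3:**
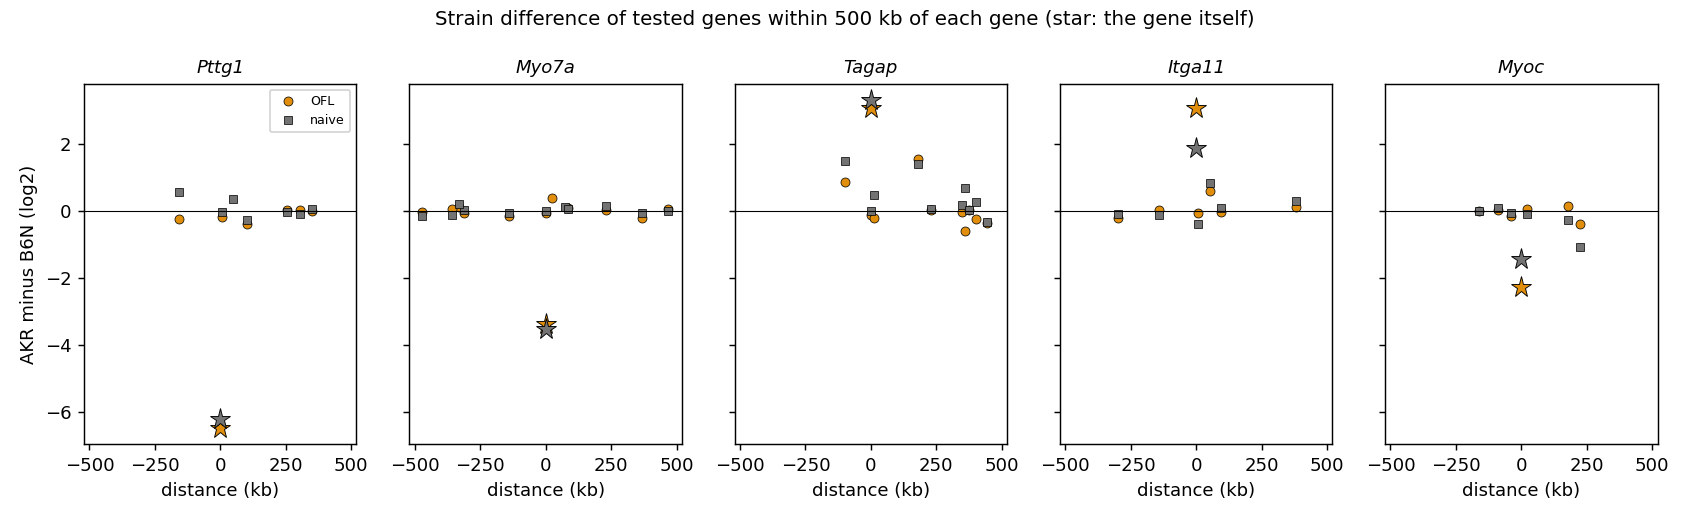
Log2 strain difference, AKR minus B6N (vertical axis), of each tested gene within 500 kb of the 5 genes by its distance in kb (horizontal axis), after OFL (orange circles) and in naive mice (grey squares), with the gene itself as a star at 0. Near Pttg1 and Myo7a the neighbours lie around 0, and near Tagap the naive values of Fndc1 (1.49) and Rnaset2a (1.42) stand out.

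Genes that work with securin passed the strain test at a share near or below that of all genes, which was 16.4% after OFL and 37.8% in naive mice. Of separase, the anaphase-promoting complex, checkpoint and cohesin genes, 2 of 25 tested were higher and 1 lower in AKR after OFL (median log2 -0.03), and 4 of 24 were higher and 4 lower in naive mice (median -0.04), where the medians over all genes were 0.0024 and 0.0061. One of them, Bub1b, differed far more than the rest of the list. It encodes the checkpoint kinase BubR1, which delays separase. It stood at 0.145 ± 0.148 CPM in AKR against 3.57 ± 0.898 CPM in B6N after OFL (SD, n = 3 each), and at 0.166 ± 0.0722 CPM in AKR against 4.54 ± 0.818 CPM in B6N in naive mice (SD, n = 4 each). With 6 counts over the AKR libraries after OFL and 14 over the naive ones, its log2 difference of -4.55 after OFL (SE 0.43, edgeR adjusted p = 1.87e-07) and -4.76 in naive mice (SE 0.26, edgeR adjusted p = 1.93e-10) depends on the prior count. Pds5b, a cohesin regulator gene, was higher by 0.19 after OFL (edgeR adjusted p = 0.00519) and 0.19 in naive mice (edgeR adjusted p = 0.000452).

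Of the other unconventional myosins, 3 of 15 were higher in AKR and none lower by edgeR after OFL (median 0.04; 5 higher and 1 lower at an unadjusted p of 0.05, 2 higher and 0 lower with DESeq2), and 5 of 16 were higher and 4 lower in naive mice (median 0.02). Myo5b, a recycling endosome motor gene, stood at 60.4 CPM in AKR against 37.7 CPM in B6N after OFL and at 58.5 CPM in AKR against 35.8 CPM in B6N in naive mice, a difference of 0.67 (edgeR adjusted p = 1.51e-06) and 0.71 (edgeR adjusted p = 3.58e-08). Myo10, a motor gene of filopodia, was higher by 0.24 after OFL (edgeR adjusted p = 0.00637) and 0.40 in naive mice (edgeR adjusted p = 2.47e-06). Of the Usher and stereocilia proteins that work with Myo7a in hair cells, 1 of 6 was higher and 1 lower after OFL, and 1 of 7 was higher and 2 lower in naive mice. The higher one was Cdh23, a tip-link cadherin gene, which stood at 5.08 CPM in AKR against 1.81 CPM in B6N after OFL (log2 1.47, SE 0.21, edgeR adjusted p = 3.1e-05) and at 4.63 CPM in AKR against 2.54 CPM in B6N in naive mice (log2 0.87, SE 0.13, edgeR adjusted p = 3.71e-05).

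T cell genes, with which Tagap is usually grouped, were scarce. Of 16 in the list, 3 passed the filter on counts after OFL and 5 in naive mice. Cd3e, a defining chain of the T cell receptor complex, had no count in any AKR library, while B6N had 2 counts over the libraries after OFL and 7 over the naive ones. The summed level of the 16 genes was 3.20 to 4.15 CPM in AKR and 4.05 to 4.81 CPM in B6N after OFL. In naive mice it was 6.05 to 7.51 CPM in AKR and 7.31 to 8.34 CPM in B6N. Most of the 16 genes did not pass the filter on counts, so the sum says little about T cells. The part of T cell content in the Tagap difference was not tested. Of the other genes of GTPase-activating proteins in the list, 2 of 20 were higher and 2 lower after OFL, and 3 of 20 were higher and 4 lower in naive mice. Chn2, which encodes the GTPase-activating protein beta-chimaerin, was lower at -0.67 after OFL (edgeR adjusted p = 2.52e-07) and -0.62 in naive mice (edgeR adjusted p = 1.2e-06).

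Among integrins and collagen receptors other than Itga11, 1 of 17 was higher and 4 lower in AKR after OFL (median -0.04), and 5 of 18 were higher and 5 lower in naive mice (median 0.04). Itga6, a laminin receptor chain gene, was lower at -0.36 after OFL (edgeR adjusted p = 0.00159) and -0.46 in naive mice (edgeR adjusted p = 1.68e-05). Itga3, another laminin receptor chain gene, was higher by 0.28 after OFL (edgeR adjusted p = 0.0161), a call that ended in 5 of 16 alternatives, among them without AKR OFL replicate 1 or 3 and without B6N OFL replicate 2 or 3. It was also higher in naive mice, by 0.45 (edgeR adjusted p = 2.15e-06). Of the adaptors that link integrins to actin, none of 10 passed edgeR's test after OFL (1 at an unadjusted p of 0.05, 0 with DESeq2), and 2 of 9 were higher and 2 lower in naive mice. Ptk2, the focal adhesion kinase gene, had a log2 difference of -0.03 after OFL (edgeR adjusted p = 0.734) and fell short of B6N in naive mice, with -0.26 (SE 0.03, edgeR adjusted p = 3.61e-06).

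Of the olfactomedin domain genes related to Myoc, 1 of 11 was higher and 2 lower in AKR after OFL (median -0.01), and 3 of 11 were higher and 2 lower in naive mice (median -0.05). Olfml3, a secreted olfactomedin-like protein gene, was lower at -0.55 after OFL (edgeR adjusted p = 0.000808) and -0.39 in naive mice (edgeR adjusted p = 0.000402), and Olfm2 was higher by 0.30 (edgeR adjusted p = 0.00111) and 0.24 (edgeR adjusted p = 8.33e-05). Of 12 genes of astrocytes at the brain surface, 1 was higher and 4 lower after OFL (median -0.06), and 3 were higher and 5 lower in naive mice (median -0.09). Thbs4, a thrombospondin gene, averaged 0.507 CPM in AKR against 1.89 CPM in B6N after OFL (log2 -1.91, SE 0.47, edgeR adjusted p = 0.00711) and 0.532 CPM in AKR against 3.67 CPM in B6N in naive mice (log2 -2.77, SE 0.27, edgeR adjusted p = 3.09e-07). Itih3 went the other way with 0.60 (edgeR adjusted p = 1.69e-06) and 0.82 (edgeR adjusted p = 4.62e-09). General astrocyte markers moved with Myoc: of 10, 4 were lower and 1 higher in AKR after OFL (median -0.16), and 7 were lower and 2 higher in naive mice (median -0.19). Their summed level was 4721 to 4854 CPM in AKR and 5605 to 5863 CPM in B6N after OFL, and 3842 to 4461 CPM in AKR and 4620 to 4992 CPM in B6N in naive mice, with no marker at 0. Between OFL and naive libraries of AKR, the sum was higher after OFL, but 7 of the 10 markers were lower and 2 higher (median log2 -0.39). Of the 12 genes of surface astrocytes, 10 were lower and 0 higher (median -0.62, lowest -1.17), beside the lower Myoc and against 38.8% of all genes lower. In B6N, 8 of the 10 markers were lower and 2 higher (median -0.50). There 9 of the 12 surface genes were lower and 1 higher (median -0.93), while Myoc fell by 0.34. Neuron markers were also lower after OFL than in naive libraries of the same strain. In AKR these were 10 of 10 for GABAergic neurons and 7 of 9 for glutamatergic neurons (1 higher). In B6N they were 10 of 10 and 8 of 9 (1 higher). Choroid plexus genes were split, with 2 of 4 lower and 2 higher in AKR, and 1 lower and 2 higher in B6N. The part of astrocyte content in the Myoc difference was not tested.

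The genes most like each of the 5 were sought by Pearson r of log2 CPM over the 14 libraries among 20291 genes, with no p, since any gene with a strain difference shares the pattern. For Pttg1 these were Kcnj16, an inward rectifier potassium channel gene (r = 0.995), Fam171b (0.994) and Myo7a (0.994). Kcnj16 stood at 2.59 CPM in AKR against 23.3 CPM in B6N after OFL, and at 3.17 CPM in AKR against 29.1 CPM in B6N in naive mice. For Myo7a they were the noncoding RNA gene Gm40518 (0.996), Hjurp, which encodes a chaperone of centromere histones (0.995), and Fam171b (0.994). Gm40518 had no count in AKR in either set, and 7.79 CPM in B6N after OFL and 5.58 CPM in naive B6N. For Tagap they were Gm2564 (0.986), the pseudogene Gm18562 (0.984) and Invs, the gene of the ciliary protein inversin (0.983). Invs stood at 54.0 CPM in AKR against 18.8 CPM in B6N after OFL, and at 54.8 CPM in AKR against 17.6 CPM in B6N in naive mice. For Itga11 they were Piezo1, a mechanosensitive channel gene (0.987), and the pseudogenes Gm5859 (0.980) and Gm1821 (0.977). Piezo1 had log2 differences of 0.85 after OFL and 0.57 in naive mice. For Myoc they were Thnsl2 (0.979), Dcdc2b (0.978) and Mei1, a meiosis gene (0.978), with log2 differences of -1.74, -3.15 and -1.16 after OFL and -1.16, -2.41 and -0.99 in naive mice. Pseudogenes share sequence with other genes, so their values are uncertain.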

How the data were processed

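Bulk RNA sequencing of 14 libraries was analysed from the raw count per gene that the authors deposited, in a table of naive and a table of OFL libraries. The CPM tables that the authors deposited per sample gave back whole reads for 100% of values (within 0.1 read) and the same calls (6668 naive, 2943 after OFL). Trizol extraction and one TruSeq kit were used for all samples, per the labels' protocols. Tools listed in the submitters' processing notes are cutadapt 2.7, TopHat2 2.1.1, HTSeq, CASAVA and edgeR, with the build GRCm38, while the annotation release and strand setting are not given in the sources used here. Symbols came from the GENCODE annotation of GRCm38, which named 53274 of the 53465 gene rows.

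Low genes were removed with filterByExpr, given the groups. After TMM scaling, the counts were tested with the quasi-likelihood F-test (edgeR 4.0.16, R 4.3.3), two-sided, with Benjamini-Hochberg adjustment over all genes tested and a threshold of 0.05. Strain differences were fitted within each set, and the other contrasts in 1 fit of 14 libraries. Levels are TMM-scaled CPM, log2 differences use a prior count of 0.125, and libraries of a group varied by a common biological CV of 0.0456 (OFL) or 0.0446 (naive). On simulated counts with 200 changed genes, 98% or more were recovered at 2-fold and 79% (interaction) to 94% (naive strain comparison) at 1.5-fold, and 4.43% (naive strain comparison) to 7.81% (interaction) of calls were false. The alternatives were DESeq2 1.42.0, other scalings and filters, protein-coding genes alone, a replicate block and leaving out each library.

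The 5 genes, the lists and the tests were chosen with earlier results of these data known. Named beside the 5 were the nearest tested gene on each side, the called neighbours and list members with the smallest p in naive mice, the 3 genes most alike in pattern, and genes that overlap or share sequence with the 5. Some genes the rule allows are not printed.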

Additional observations from a re-analysis of the deposited data

Results flagged for a closer look

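Itga11 in naive B6N had 1 library far from the others, replicate 2 at 2.74 CPM, against 3.61 to 3.78 CPM in the other 3. Chance flags about 1 in 20 groups in this way.

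The strain difference of 8 named genes differed between OFL and naive libraries by the test of the interaction (edgeR adjusted p under 0.05). The set of libraries cannot be told apart from the conditioning. Among all genes, 5.15% passed this test. List genes and called neighbours were named for a small p in naive mice, and the naive difference is part of the interaction. Each interaction of theirs given below runs against the naive difference, as such a choice favours, so no weight rests on the 8. For Itga11 the interaction was 1.20 on the log2 scale, and for Myoc it was -0.84. Among the list genes, it was 0.31 for Myo9b (SE 0.07, edgeR adjusted p = 0.00778), a myosin gene that stood at 102 CPM in AKR against 100.6 CPM in B6N after OFL, and at 110.0 CPM in AKR against 135 CPM in B6N in naive mice. For Ptk2 it was 0.24 (SE 0.06, edgeR adjusted p = 0.00904), and for Fam107a, a surface astrocyte gene, 0.56 (SE 0.08, edgeR adjusted p = 7.85e-05). Fam107a averaged 246 CPM in AKR against 275 CPM in B6N after OFL, and 339 CPM in AKR against 559 CPM in B6N in naive mice. Among the neighbours, it was -0.61 for Fndc1 near Tagap (edgeR adjusted p = 0.0309), -0.67 for Rsph3a near Tagap (edgeR adjusted p = 0.0233) and 0.33 for Fem1b near Itga11 (edgeR adjusted p = 0.000527). The Fndc1 call ended in 4 of 23 alternatives (adjusted p up to 0.212), without AKR naive replicate 4, B6N naive replicate 1, AKR OFL replicate 2 or B6N OFL replicate 1. The Rsph3a call also ended in 4 of 23 (adjusted p up to 0.0707), without B6N naive replicate 1, AKR OFL replicate 3 or B6N OFL replicate 1 or 3.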

How the results depend on the processing

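Of 104 counts of called genes, neighbours or list genes recomputed under alternatives, 103 stayed within 1.5 times the reported count. The exception was the strain comparison after OFL, with 2943 called genes: without B6N OFL replicate 2 it called 1934, and leaving out each library in turn gave 1934 to 3514. No called value of a named gene changed sign. For the 5 genes, the strain differences moved by more than 1 SD of the replicates' log2 values for Pttg1 in naive mice without AKR naive replicate 2 (-6.51) or replicate 3 (-5.99), and for Tagap when its counts were summed with those of Tagap1 (0.20 after OFL, 0.24 in naive mice). Reads that align to both copies may be missing from both counts and so from the sum, which was not tested. The cause of the other calls that ended was not tested. AKR and B6N libraries share replicate numbers, but same-numbered libraries did not deviate together (correlations -0.0296 to 0.0439). These correlations run over all genes and could miss a shared effect on few genes, so pairing is not excluded. With a replicate block, 3021 genes were called in the strain comparison after OFL, 6229 in naive mice and 999 in the interaction. Depth limits Pttg1 in AKR most, with 2 counts in each library after OFL.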
